A study of Mus musculus with 50 samples.

Results

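Heat shock proteins and chaperones were followed in the paraventricular nucleus (PVN) of the mouse hypothalamus. They were taken as every clone of the cDNA array whose deposited name starts with "heat shock", "DnaJ (Hsp40)", "chaperonin", "calnexin", "calreticulin", "protein disulfide isomerase" or "BCL2-associated athanogene", or holds "Hsp90" or "Hsp70", with Ptges3 and Fkbp5 left out. This gave 85 of the 22824 clones that are no control spots. No measured value entered the choice. Of the 85 clones, 65 carry a name that belongs to 1 mouse gene, 42 genes in all, while 20 carry a name that does not settle the gene, such as "heat shock protein, 1". Those 20 are called by that name and by their number on the array.

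All mice were males of 3-5 months, single housed, of the inbred strains C57BL/6J and DBA/2J. In each strain 1 group was basal, that is unstressed, and 2 groups had swum for 5 min in water at room temperature and were killed 4 h or 8 h later. Mice of both times were killed at the same clock hour, so the 8 h mice had swum earlier in the day. RNA of the PVN and adjacent tissue from 6 animals was pooled and amplified in 2 rounds. Two-colour arrays, 10 per comparison with the dyes swapped on 5, compared pools in 5 ways: stressed against basal at 4 h and at 8 h in each strain, and basal DBA/2J against basal C57BL/6J. The 10 arrays are technical replicates of the same 2 pools, so standard errors (SE) and p-values hold technical error only, and no spread between animals was measured. The 3 comparisons of a strain share its basal pool. Values are log2 ratios, stressed over basal or DBA/2J over C57BL/6J, turned by the labelled dyes, and the study's tables print these comparisons with the opposite sign. The direction is not settled. By the labelled dyes Gnai2 clone 9897 had -0.99 at 4 h in DBA/2J (limma, adjusted p = 0.0351) and 4 of the 5 App clones had values below 0 at 8 h, while the study's real-time PCR runs with its tables for both genes. The study also reports an increase by in situ hybridization, without showing those data. Rose, fell, higher and lower are therefore by the labelled dyes throughout. With the sign turned, every log2 value and difference here changes sign and keeps its size and test. The 5 members called between the basal strains would then be lower in DBA/2J, the calls in C57BL/6J 1 higher at 4 h and 2 lower at 8 h, and those in DBA/2J at 8 h 2 higher and 1 lower.

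Chaperones hold proteins in a state that can fold and keep unfolded chains from aggregating. In the cytosol, Hsp40 (DnaJ) proteins bring clients to Hsp70 and set off its ATPase, BAG proteins exchange its nucleotide, Hsp90 takes over late folding steps of signalling proteins such as the glucocorticoid receptor, and the ring-shaped chaperonin CCT folds actin and tubulin. In the endoplasmic reticulum, calnexin and calreticulin bind sugar chains of new glycoproteins, and the Hsp70 relative Hspa5 (BiP) senses unfolded protein. Heat shock factor 1 turns on the cytosolic genes after heat or other proteotoxic stress, and the unfolded protein response turns on those of the endoplasmic reticulum. The PVN starts the hormonal stress response, which ends in the release of glucocorticoids.

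The elements through which these 2 programmes act can be read in the promoters of members, and the sequences below are shown because they mark the members that carry them. RefSeq promoters (GRCm38.p6, 300 bases, of which 50 lie after the annotated start) were found for 35 of the 42 genes, 46 promoters in all. The ER stress element (CCAAT and CCACG with 9 bases of any kind between them), searched on both strands, stood in 4 of them (8.70%), those of Canx, Hspa5, Calr and Dnajc3, and in 0.119% of all 32851 promoters. The 250 bases before the start of Canx (chr11:50325674-50325923, minus strand) and of Hspa5 (chr2:34771840-34772089, plus strand) follow, and the elements of Calr and Dnajc3 stand under them. Capitals mark the element, which on Calr runs on the reverse strand.
Canx: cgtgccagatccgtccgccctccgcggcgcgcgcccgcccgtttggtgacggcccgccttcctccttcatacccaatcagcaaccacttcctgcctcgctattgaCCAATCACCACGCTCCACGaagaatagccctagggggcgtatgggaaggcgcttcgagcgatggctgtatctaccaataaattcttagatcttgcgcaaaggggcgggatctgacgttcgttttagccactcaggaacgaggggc
Hspa5: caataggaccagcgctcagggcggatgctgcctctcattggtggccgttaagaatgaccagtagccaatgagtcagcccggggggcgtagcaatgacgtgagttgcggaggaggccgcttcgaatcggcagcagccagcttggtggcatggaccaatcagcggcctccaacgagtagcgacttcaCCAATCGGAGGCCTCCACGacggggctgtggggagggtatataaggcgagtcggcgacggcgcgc
Calr: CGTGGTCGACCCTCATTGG
Dnajc3: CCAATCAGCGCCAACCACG

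The heat shock element, searched on both strands as 3 units in a row that alternate between GAA and TTC with 2 bases of any kind between them, stood in 4 of the 46 member promoters (8.70%) of 3 genes, Hspd1, Hspe1 and Dnajb6, and in 0.603% of all promoters. Hspd1 and Hspe1, the mitochondrial chaperonin and its lid, lie head to head and share 1 such element, 2 overlapping matches over 18 bases. It is printed from the Hspe1 side with the Dnajb6 element beside it, all matched bases in capitals.
Hspe1: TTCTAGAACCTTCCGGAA
Dnajb6: GAATCTTCCGGAA
The plain TATAAA box stood in 2 member promoters (4.35%), of Calr and Hspb3, and in 13.6% of all promoters. These matches describe the letters in a window and are no measured binding site, and a promoter without a match says only that these letters are not in it.

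Members were bright for this array. A spot was counted as above the empty spots where both dyes exceeded the 95th percentile of the empty spots of the same array, and 37 of the 85 clones (43.5%) met this on 25 or more of the 50 arrays, against 16.1% of all clones. On all 50 arrays 12 members met it and on none 15. The share of all clones above the empty spots was 29.8% to 57.1% on the C57BL/6J 4 h arrays but 5.31% to 8.07% on the DBA/2J 8 h arrays, 14.5% to 22.1% on the DBA/2J 4 h arrays, 12.4% to 28.0% on the C57BL/6J 8 h arrays and 9.95% to 22.8% on the basal arrays. The dates in the file headers fall on 10 days, called header days here, none shared by 2 comparisons. A difference between comparisons and one between header days therefore cannot be told apart. Of the neurosecretory peptides that define the PVN, the clone of Avp was above the empty spots on 11 of 50 arrays, that of Trh on 17 and that of Oxt on 0, and no clone is named for Crh. In RNA from pooled tissue, fewer cells of a type and less RNA per cell cannot be told apart.

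Few members changed in any comparison. A clone was called where its mean log2 ratio was at least 0.50 in size with an adjusted p under 0.05 (limma, Benjamini-Hochberg over the 22824 clones). Between the basal strains 5 of 85 members were called, all higher in DBA/2J (5.88%), where 3.62% of all clones were called in either direction and 1.61% were higher. In C57BL/6J, 1 member fell at 4 h (1.18%), where 0.289% of all clones were called and 0.272% fell. At 8 h 2 members rose (2.35%), where 0.0832% of all clones were called and 0.0789% rose. In DBA/2J, 0 members were called at 4 h (all clones 0.153%), though 17 had an unadjusted p under 0.05 (20% of members, 10.7% of all clones), 12 of them higher (all clones 5.25%). At 8 h 1 rose and 2 fell (3.53%), where 0.158% of all clones were called, 0.0789% in each direction. The median member moved little: 0.06 between the basal strains, -0.00 and 0.01 in C57BL/6J at 4 h and 8 h, and 0.06 and -0.06 in DBA/2J, while the median of all clones lay within 0.01 of 0. Members are brighter than other clones and bright clones are called more often, so the shares were also set against the 3665 clones above the empty spots on 25 or more arrays. Among the 37 bright members 3 were called between the basal strains (8.11%, bright clones 14.2%), 2 at 8 h in C57BL/6J (5.41%, bright clones 0.464%) and 2 at 8 h in DBA/2J (5.41%, bright clones 0.682%). The map of all members shows isolated calls in a field of values near 0.

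**Figure D1:**
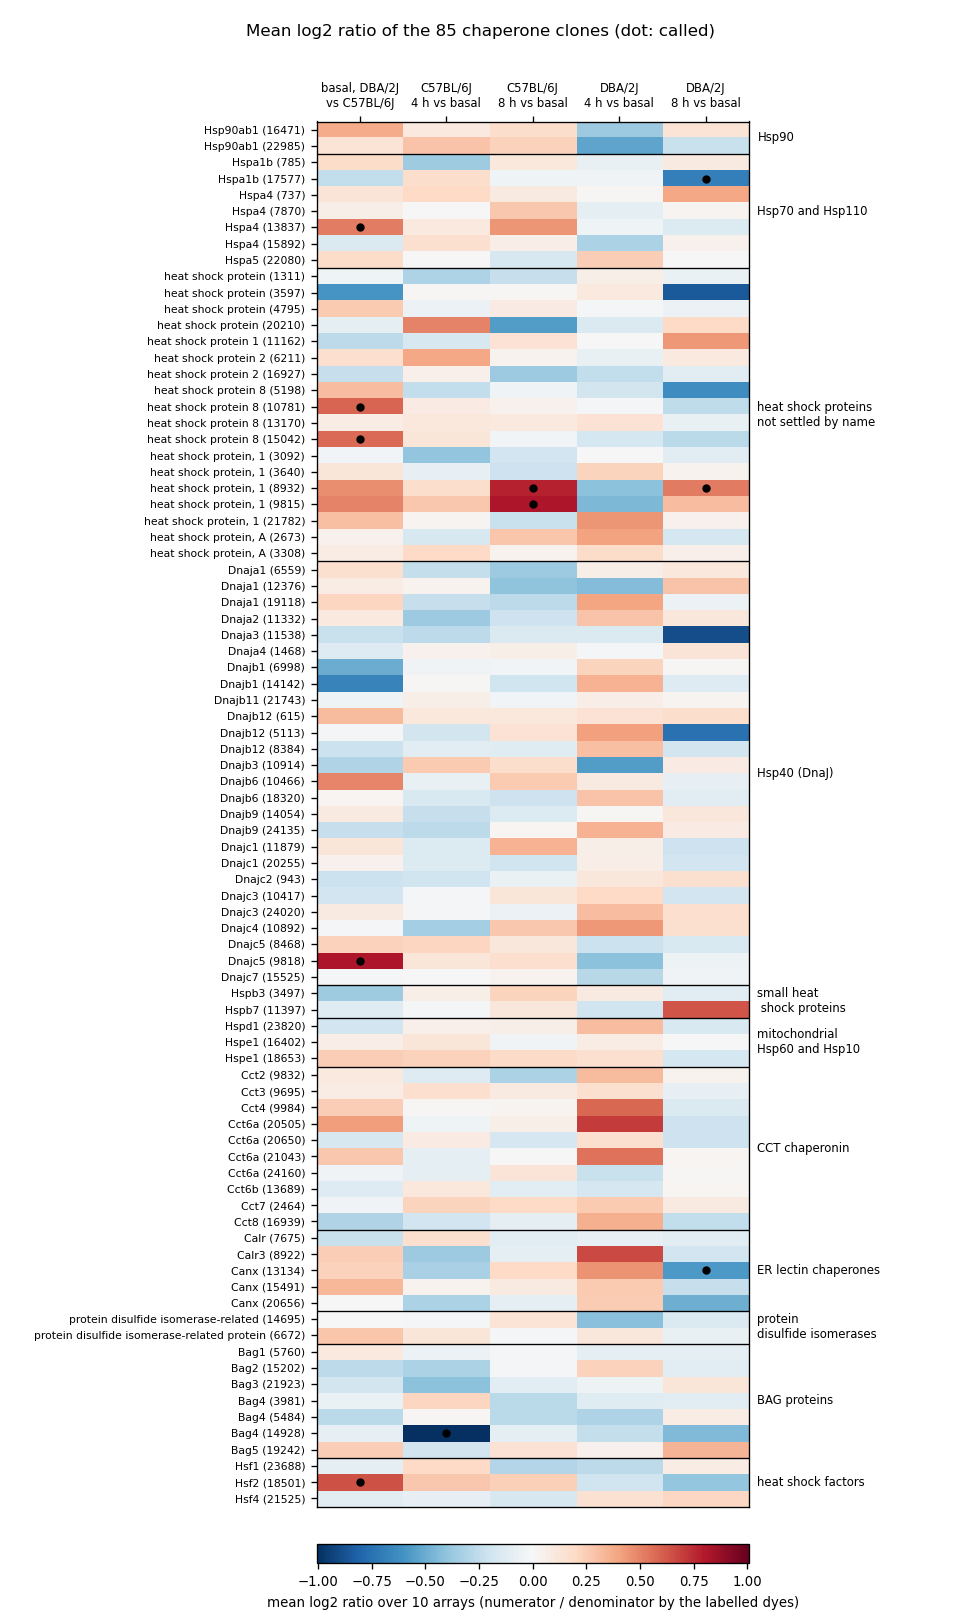
Mean log2 ratio of each of the 85 clones (one line each, grouped by role) in the 5 comparisons (columns), red where higher and blue where lower in the stressed or the DBA/2J pool; dots mark the 11 called values. Basal calls are all red, and the calls after stress are 3 red and 3 blue.

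More members differed between the strains in their 4 h values than were called in any single comparison. The log2 ratios after stress were subtracted, DBA/2J minus C57BL/6J, which share no pool, and 10 of 85 members differed at 4 h (11.8%, all clones 2.34%), 6 with the higher value in DBA/2J (all clones 1.16%) and 4 with the lower (all clones 1.19%). Among bright clones the shares were 24.3% of members and 9.41% of all. At 8 h 2 members differed (2.35%, all clones 0.6%), both bright (5.41%, bright clones 2.84%). Over the 85 members the 4 h values of the strains ran against each other, with Pearson r = -0.33 and Spearman rho = -0.40 across clones and opposite signs for 55 (64.7%), where over the 22739 other clones r was -0.09 and 53% had opposite signs. Over the 37 bright members r was -0.57 with 73% of opposite sign, and over the 3628 other bright clones -0.26 with 56.6%. At 8 h r was 0.09 and 50.6% of members had opposite signs. These are descriptions across clones, which are not independent, with several clones for some genes and shared arrays behind each axis. From 4 h to 8 h, 7 members differed in DBA/2J (8.24%, all clones 1%) and 3 in C57BL/6J (3.53%, all clones 0.495%). Among bright clones these shares were 18.9% of members and 4.28% of all in DBA/2J, and 2.7% of members and 2.26% of all in C57BL/6J, where 1 bright member differed. Both times of a strain were measured against the same basal pool.

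**Figure D2:**
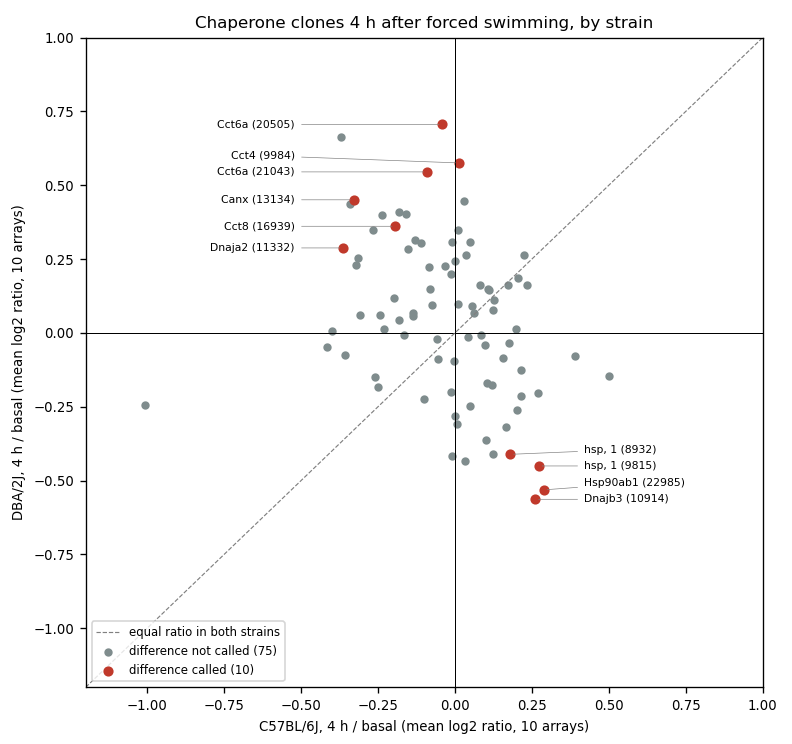
Mean log2 ratio 4 h after stress in C57BL/6J (horizontal) against DBA/2J (vertical) for each of the 85 clones; the 10 clones with a called strain difference are red and the other 75 grey. The red clones lie away from the diagonal, with Canx and CCT clones at the upper left and Dnajb3, Hsp90ab1 and heat shock protein, 1 at the lower right.

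Clone 8932 was the only member called after stress in both strains, and it bears the name "heat shock protein, 1", which the files do not tie to a gene. Clones 8932 and 9815 of that name were above the empty spots on all 50 arrays. At 8 h in C57BL/6J the arrays of clone 8932 ran from 0.34 over a median of 0.80 to 1.10 and those of clone 9815 from 0.27 over 0.81 to 1.57. All 10 arrays were above 0 for both, in both dye orientations. The means were 0.77 (SE 0.116, 1.71-fold, adjusted p = 0.0313) and 0.81 (SE 0.130, 1.76-fold, adjusted p = 0.045). In DBA/2J at 8 h clone 8932 ran from 0.09 over 0.50 to 0.98, again with 10 of 10 arrays above 0, and its mean was 0.53 (SE 0.084, adjusted p = 0.0443). Clone 9815 had a mean of 0.31 there and did not pass (adjusted p = 0.226).

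At 4 h these 2 clones were not called in either strain and the strains differed. In C57BL/6J clone 9815 ran from 0.17 over 0.21 to 0.56 and in DBA/2J from -0.65 over -0.45 to -0.18, so no arrays overlapped. The difference, DBA/2J minus C57BL/6J, was -0.72 (SE 0.122, adjusted p = 0.00238). For clone 8932 the means were 0.18 and -0.41 and the difference -0.59 (adjusted p = 0.0349), which passed without 6 of the 20 arrays in turn and not without the 14 others (adjusted p up to 0.0667). From 4 h to 8 h clone 8932 rose by 0.94 in DBA/2J (adjusted p = 0.00482) and by 0.59 in C57BL/6J (adjusted p = 0.0339, up to 0.0778 and passing without 6 of the 20 arrays in turn), and clone 9815 rose by 0.76 in DBA/2J with no overlap of arrays (adjusted p = 0.00776). In the basal pools both had higher values in DBA/2J, 0.47 and 0.50, that did not pass (adjusted p = 0.0709 and 0.0766).

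Other clones of the same name did not share this course. Clones 3092, 3640 and 21782 had means of -0.20, -0.21 and -0.22 at 8 h in C57BL/6J and of -0.11, 0.03 and 0.04 at 8 h in DBA/2J, and none was called. The name thus joins clones with different values, and whether they stand for 1 gene cannot be told from the files.

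Some markers of other cells moved with these clones. In DBA/2J at 4 h Trh, a peptide of PVN neurons, fell by 0.75 (adjusted p = 0.0309), and its strain difference at 4 h was -1.08. The astrocyte clones of Aldoc and Glul also had called strain differences at 4 h, -0.83 for Aldoc and -0.70 and -0.61 for 2 Glul clones, 3 of 30 astrocyte clones in all. From 4 h to 8 h in DBA/2J, Aldoc rose by 0.70 and Trh by 0.81. The 7 clones of the PVN list had medians of -0.10 in DBA/2J at 4 h and 0.02 for the 4 h strain difference. Of these, 3 and 4 were above 0. The 30 astrocyte clones had medians of 0.03 and -0.13, with 15 and 10 above 0. From 4 h to 8 h in DBA/2J the medians of the 2 lists were 0.11 and 0.06. The 5 clones of red blood cell genes had a median of -0.12 in DBA/2J at 4 h and 0.33 at 8 h, with 0 called. Their part in the result was not tested.

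Hsp90 was present as 2 clones of Hsp90ab1, the constitutive cytosolic form. No clone carries a name that settles it as Hsp90aa1, the inducible form. On clone 22985 the arrays ran from -0.22 over 0.36 to 0.69 at 4 h in C57BL/6J and from -1.33 over -0.46 to 0.12 in DBA/2J, where 9 of 10 were below 0. The means were 0.29 and -0.53, neither called, and the difference between strains was -0.82 (SE 0.160, adjusted p = 0.00626). In DBA/2J the orientations differed, -0.87 with the stressed pool in Cy5 and -0.19 in Cy3. Clone 16471, dimmer and above the empty spots on 9 of 50 arrays, had means of 0.10 and -0.36 at 4 h and no called difference.

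Hsp70 and its relatives gave 1 called strain value and 1 call after stress. Hspa4, an Hsp110 protein that acts as a nucleotide exchange factor of Hsp70, was higher in basal DBA/2J on clone 13837, which ran from 0.13 over 0.47 to 0.98 with 10 of 10 arrays above 0. Its mean was 0.51 (SE 0.134, adjusted p = 0.0471). Without any 1 of the 10 arrays, and with a block for the header day (limma, adjusted p = 0.0565), it did not pass. The 3 other Hspa4 clones, at or near the empty spots on most arrays, had means of 0.13, 0.06 and -0.15. After stress clone 13837 had means of 0.44 at 8 h in C57BL/6J, on 10 of 10 arrays, and -0.14 in DBA/2J. Neither was called, and the difference between strains was -0.58 (adjusted p = 0.0339), passing without 6 of the 20 arrays in turn (adjusted p up to 0.0804).

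Clones 10781 and 15042 of "heat shock protein 8", the name of the constitutive Hsc70 gene Hspa8 but also borne by a small heat shock protein, were both higher in basal DBA/2J. The arrays ran from 0.18 over 0.61 to 0.98 and from 0.39 over 0.54 to 0.94. The means were 0.59 (adjusted p = 0.0207) and 0.57 (adjusted p = 0.0212), both were above the empty spots on all 50 arrays, and 10 of 10 arrays were above 0 for each. Each clone did not pass without 2 of its 10 arrays, taken in turn, and passed without the 8 others. The 2 other clones of the name, dim ones, had means of 0.31 and 0.07. After stress both bright clones stayed between -0.27 and 0.12 and none was called.

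Hspa1b, the stress-inducible Hsp70, could not be followed well. Clone 17577 was not above the empty spots on any array and clone 785 on 1 of 50. Clone 17577 was nonetheless called at 8 h in DBA/2J at -0.69 (SE 0.111, adjusted p = 0.0443), with arrays from -1.15 over -0.78 to 0.12, and no fold is given for it. On the 3 days of these arrays its means were -1.06, -0.65 and -0.38, while clone 785 had a mean of 0.09. No clone is named for Hspa1a. Hspa5, the Hsp70 of the endoplasmic reticulum whose promoter is printed above, had means between -0.16 and 0.24 in all 5 comparisons and was not called.

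Among the 26 Hsp40 clones of 16 genes 1 was called in a comparison. Dnajc5 (cysteine string protein), which guards synaptic vesicle proteins, was higher in basal DBA/2J on clone 9818, with arrays from 0.09 over 0.65 to 1.93, all above 0. Its mean was 0.82 (SE 0.188, adjusted p = 0.0236). The clone was not above the empty spots on any of these arrays. Its means on the 2 header days were 0.55 and 1.45, and the brighter Dnajc5 clone 8468 had a mean of 0.23. Clone 9818 passed without 7 of the 10 arrays in turn and not without the 3 others. Dnajb1, the main stress-inducible Hsp40, had lower values in basal DBA/2J on both clones, -0.50 and -0.67, with 9 of 10 arrays below 0 on each. Neither passed (adjusted p = 0.084 and 0.0715), and both were called when all 50 arrays were fitted together.

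Dnajb3, an Hsp40 protein best known from testis, had opposite signs in the strains at 4 h. Its clone 10914, above the empty spots on all 50 arrays, ran from -0.15 over 0.35 to 0.48 at 4 h in C57BL/6J and from -0.88 over -0.57 to -0.05 in DBA/2J, where all 10 arrays were below 0. The means were 0.26 and -0.56, neither of which passed (adjusted p = 0.215 and 0.108), and the difference was -0.82 (SE 0.134, adjusted p = 0.00168). By 8 h the DBA/2J mean was 0.08, higher than at 4 h by 0.64 (adjusted p = 0.0198). Dnaja2, a partner of Hsc70, went the other way at 4 h, -0.36 in C57BL/6J on 10 of 10 arrays and 0.29 in DBA/2J, and the difference was 0.65 (adjusted p = 0.0414), passing without 2 of the 20 arrays in turn (adjusted p up to 0.0827). Spotted cDNA can also bind transcripts of close relatives, which was not tested for any member.

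CCT clones had higher values in the DBA/2J pool at 4 h. Of 10 clones of 7 genes, 8 were above 0 there and 5 had an unadjusted p under 0.05, all 5 higher (all clones 5.25% higher), with a median of 0.29, where 5 of 10 were above 0 in each of the other 4 comparisons and the median of all clones was 0.00. None of the 10 was called in that comparison alone (all clones 0.153%). Cct4 ran from 0.28 over 0.55 to 0.88 with 10 of 10 arrays above 0, and its mean was 0.58 (SE 0.117, adjusted p = 0.0781). Cct6a had means of 0.71, 0.55, 0.16 and -0.22 on its 4 clones, and Cct8, Cct2, Cct7 and Cct3 had 0.36, 0.31, 0.26 and 0.16. Cct6b went the other way with -0.17. The CCT subunit Tcp1 lies outside the member names and was counted with the co-chaperones below. Cct4 and Cct6a clones 20505 and 21043 were called when all 50 arrays were fitted together.

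Against C57BL/6J at 4 h, 4 CCT clones of 3 genes were higher by a called difference (all clones 1.16%), while Cct6b had -0.27, not called. Cct4 had a C57BL/6J mean of 0.01, its arrays did not overlap those of DBA/2J, and the difference was 0.56 (SE 0.122, adjusted p = 0.0146). For Cct8 it was 0.56 (adjusted p = 0.0361) and for Cct6a clones 21043 and 20505 0.64 and 0.75 (adjusted p = 0.00626 and 0.0477). Those of Cct8 and Cct6a clone 20505 passed without 6 and 5 of the 20 arrays in turn (adjusted p up to 0.0747 and 0.0935). By 8 h Cct4 stood at -0.14 in DBA/2J and Cct8 at -0.25, lower than at 4 h by called differences, -0.72 for Cct4 with no overlap of arrays (adjusted p = 0.0111) and -0.61 for Cct8 (adjusted p = 0.0297, passing without 10 of the 20 arrays in turn and up to 0.0633). Prefoldin, which hands actin and tubulin chains to CCT, was not among the members. Its 6 clones of 3 genes were all above 0 in DBA/2J at 4 h with a median of 0.35. Of the 6, 0 were called (all clones 0.153%) and 4 had an unadjusted p under 0.05 (all clones 10.7%). Of these, 3 of the 4 clones of the prefoldin subunit Vbp1 had called strain differences at 4 h, 0.65, 0.78 and 0.75.

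**Figure D3:**
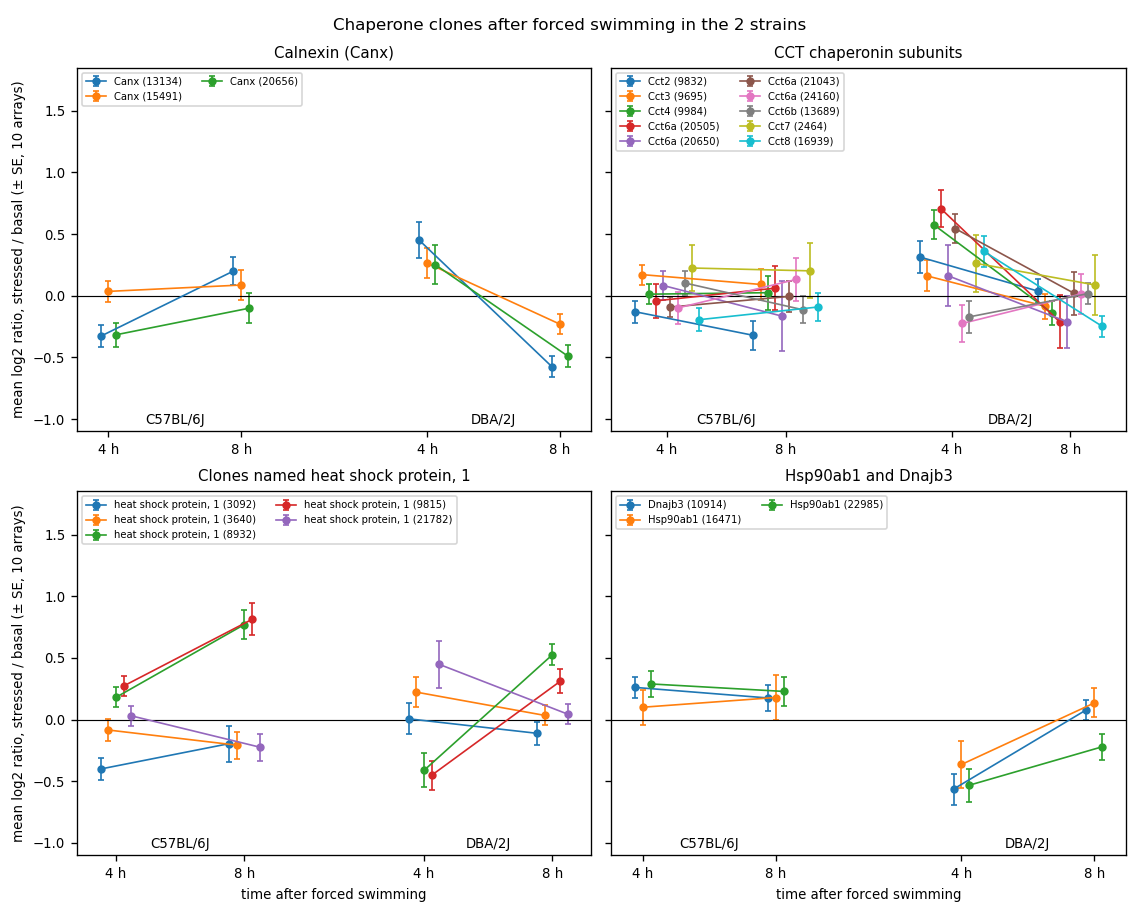
Mean log2 ratio against basal with its SE over 10 arrays, at 4 h and 8 h in C57BL/6J and DBA/2J, in 4 panels: Canx clones, CCT clones, clones named heat shock protein, 1, and the Hsp90ab1 and Dnajb3 clones. In DBA/2J the CCT clone Cct4 went from 0.58 at 4 h to -0.14 at 8 h, while heat shock protein, 1 clone 8932 went from -0.41 to 0.53.

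Calnexin (Canx), the membrane-bound lectin chaperone of the endoplasmic reticulum, fell in DBA/2J at 8 h. On clone 13134, above the empty spots on all 50 arrays, the arrays ran from -0.81 over -0.57 to -0.29, all 10 below 0 and with equal means in the 2 orientations, -0.58 and -0.57. The mean was -0.58 (SE 0.087, 1.49-fold lower, limma, adjusted p = 0.0392), and on the 3 header days it was -0.60, -0.50 and -0.66. In C57BL/6J at 8 h the mean was 0.20, no array overlapped those of DBA/2J, and the difference was -0.78 (SE 0.123, adjusted p = 0.00211). At 4 h the order was the opposite, with means of 0.45 in DBA/2J on 9 of 10 arrays and -0.33 in C57BL/6J on 10 of 10. The difference at 4 h was 0.78 (SE 0.162, adjusted p = 0.0104), and from 4 h to 8 h Canx went down in DBA/2J by -1.03 (adjusted p = 0.00457).

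Both other Canx clones had the same signs in DBA/2J. Clone 20656 had means of 0.25 at 4 h and -0.49 at 8 h (adjusted p = 0.0564 at 8 h), and its change between the times was -0.74 (adjusted p = 0.0428), passing without 2 of the 20 arrays in turn (adjusted p up to 0.081). Clone 15491 had 0.26 and -0.23, with 10 of 10 arrays below 0 at 8 h, and no called difference. Clone 20656 was above the empty spots on 1 of the 10 DBA/2J arrays at 8 h and clone 15491 on all 10.

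Other genes of the endoplasmic reticulum were not called after stress, and whether their course differed from that of Canx was not tested. A list outside the members held 27 clones of 17 genes of folding there and of the unfolded protein response. Of these, 0 were called in any comparison after stress (all clones 0.0832% to 0.289%). At such shares 0 of 27 does not set the list apart from all clones. An unadjusted p under 0.05 stood for 6 and 2 of the 27 at 4 h and 8 h in C57BL/6J (all clones 12.3% and 9.28%). In DBA/2J it stood for 1 and 2 of them (all clones 10.7% and 12%). Their medians in DBA/2J were -0.01 at 4 h and 0.08 at 8 h. Of the 4 genes with the ER stress element, Canx was called lower at 8 h in DBA/2J. Hspa5 had means of 0.24 at 4 h and -0.01 at 8 h there, Calr -0.08 and -0.11, and the 2 clones of Dnajc3 0.20 and 0.31 at 4 h and -0.20 and 0.17 at 8 h. None of these was called, nor was any of their changes between the times. Of the 5 clones of calnexin and calreticulins 4 were above 0 at 4 h in DBA/2J and 0 at 8 h, Calr3 going from 0.66 to -0.20. Between the basal strains Erp44 and P4hb of that list were lower in DBA/2J by -0.61 and -0.70, and Manf had a strain difference of 1.08 at 4 h from a clone not above the empty spots on any array. The thalamus marker Tcf7l2 (clone 3616, above the empty spots on 49 of 50 arrays) fell with Canx in DBA/2J at 8 h, by 0.52 (adjusted p = 0.0472), and its strain difference at 8 h was -0.80. Over the 6 clones of genes of thalamus and cortex the medians in DBA/2J were 0.23 at 4 h and -0.28 at 8 h, with 5 and 2 clones above 0, and their part in the result was not tested.

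Among the 7 BAG clones of 5 genes, Bag4, which silences death receptors and binds Hsp70, fell at 4 h in C57BL/6J. On clone 14928 the arrays ran from -1.66 over -1.06 to -0.16, all 10 below 0, and the mean was -1.01 (SE 0.161, 2.01-fold lower, adjusted p = 0.0253). Other Bag4 clones did not share it, with means of 0.21 for clone 3981 and 0.01 for clone 5484, so the 3 clones of the gene spanned 1.22. Clone 14928 was not among the 37 members above the empty spots on 25 or more of the 50 arrays. It kept its call when the dim clones of that comparison were filtered out. By 8 h clone 14928 stood at -0.10, higher than at 4 h by 0.91 (adjusted p = 0.0408, passing without 3 of the 20 arrays in turn and up to 0.0904), and in DBA/2J its means were -0.24 and -0.44, not called. In the same pool at 4 h 1 of 32 oligodendrocyte clones was called, a clone of the glial gene Qk that fell by 1.06 (limma, adjusted p = 0.0065). Other clones of Qk were not called. Over the 32 clones the median was -0.09 and 14 were above 0, and the part of glia was not tested.

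Of the heat shock factors Hsf1, Hsf2 and Hsf4, each with 1 clone, Hsf2 was higher in basal DBA/2J at 0.64 (SE 0.152, adjusted p = 0.027), with 9 of 10 arrays above 0, a range from -0.06 over 0.61 to 1.34, and no array on which it was above the empty spots. It passed without 4 of the 10 arrays in turn and not without the 6 others. None of the 3 was called after stress. The mitochondrial chaperonin clones of Hspd1 and Hspe1 stayed between -0.19 and 0.31 in all comparisons, with 0 of 3 called. The small heat shock proteins Hspb3 and Hspb7 and the 2 clones of protein disulfide isomerase relatives were not called. One clone with the bare name "heat shock protein", 20210, had means of 0.50 at 4 h and -0.56 at 8 h in C57BL/6J, neither called, and a difference of -1.06 between the times (adjusted p = 0.0266), passing without 18 of the 20 arrays in turn (adjusted p up to 0.0506). It was above the empty spots on 2 of 50 arrays.

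The 3 widest uncalled values came from dim clones. At 8 h in DBA/2J Dnaja3, a mitochondrial Hsp40, had a mean of -0.89 (adjusted p = 0.0856), clone 3597 with the bare name "heat shock protein" -0.85 (adjusted p = 0.223) and Dnajb12 clone 5113, of an endoplasmic reticulum Hsp40, -0.75 (adjusted p = 0.172), while Hspb7 had 0.63 (adjusted p = 0.398). In a limma fit of all 50 arrays together Dnaja3 was called, with an adjusted p of 0.0357. So were clone 3597 (adjusted p = 0.027) and Dnajb12 clone 5113 (adjusted p = 0.0481). None of these 4 clones was above the empty spots on any of those 10 arrays. Dnajb12 clone 615, above them on 48 of 50 arrays, had 0.18 there. At 4 h in DBA/2J Calr3, a calreticulin of testis, had a mean of 0.66, above 0 on 9 of 10 arrays (adjusted p = 0.237), likewise from a clone not above the empty spots. The 3 clones of Dnaja1, a partner of Hsc70, disagreed there, with means of 0.06, -0.43 and 0.40, and all 3 had values below 0 at 8 h in C57BL/6J, -0.36, -0.41 and -0.26, none called.

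Further helpers outside the members gave few calls. Cytosolic co-chaperones and the CCT subunit Tcp1, together 19 clones of 11 genes, had 0 calls after stress (all clones 0.0832% to 0.289%). An unadjusted p under 0.05 stood for 5 and 3 of them at 4 h and 8 h in C57BL/6J (all clones 12.3% and 9.28%). In DBA/2J it stood for 2 and 1 of them (all clones 10.7% and 12%). Chordc1, a partner of Hsp90, was lower in basal DBA/2J by -0.59 (adjusted p = 0.0248) and had a strain difference of 0.68 at 4 h (adjusted p = 0.0345). Of 6 clones of mitochondrial import and proteolysis, Clpx rose in DBA/2J at 4 h by 1.06 (adjusted p = 0.0309), from a clone not above the empty spots on any array. Of 10 clones of cyclophilins and FKBPs, 0 were called in any comparison or difference (all clones 0.0832% to 3.62%). An unadjusted p under 0.05 stood for 1 or 2 of them in each of the 5 comparisons (all clones 9.28% to 15.4%).

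The basal values stand beside other differences between these 2 pools. Markers of oligodendrocytes were called in 9 of 32 clones between the basal strains, 7 higher in DBA/2J, among them Mbp, and 2 lower (Cnp and Mobp), with a median of 0.20, a median above 0 on all 10 arrays. Of 30 astrocyte clones 4 were higher, all of Glul, and of 5 red blood cell clones 2 of Hbb-b1 were higher at 0.77 and 1.05. Of 6 thalamus and cortex clones 1, of Tcf7l2, was higher at 0.67, with a list median of 0.25. Of 7 clones of the PVN list 1 was lower at -0.81, a clone of Scg2, a protein of neurosecretory granules. The median of these 7 was -0.08 and 3 were above 0. No clone of microglia (7) or of endothelium and mural cells (10) was called (all clones 3.62%). Their part in the 5 basal member calls was not tested.

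**Figure D4:**
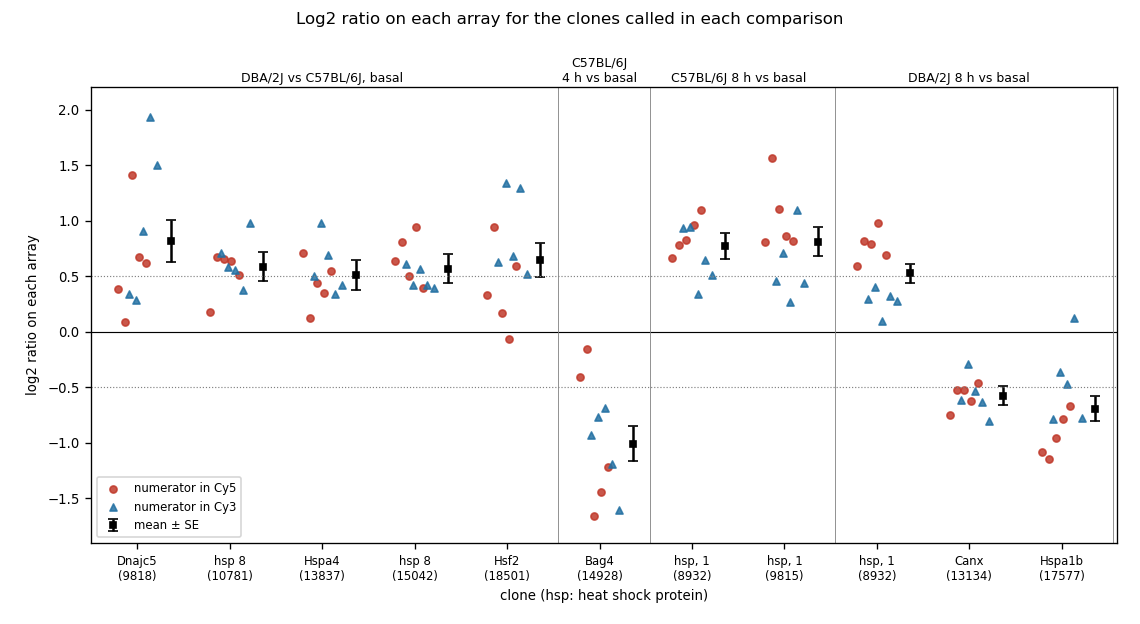
Log2 ratio on each of the 10 arrays for the 11 called pairs of clone and comparison, circles with the stressed or DBA/2J pool in Cy5 and triangles with it in Cy3, with the mean and its SE; dotted lines mark the threshold of 0.50 either way. In 9 of the 11 pairs all 10 arrays lie on 1 side of 0, the exceptions being Hsf2 and Hspa1b.

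The calls after stress stood near the threshold. Without any 1 of the 10 arrays none of the 5 calls at 8 h passed, with adjusted p of 0.0536 to 0.116, and Bag4 at 4 h passed without 1 of its 10 arrays and not without the 9 others, while every mean kept its sign. With a block for the header day (limma), clone 8932 at 8 h in C57BL/6J passed (adjusted p = 0.0454) and clone 9815 did not (adjusted p = 0.0771). With that block none of the 3 DBA/2J calls at 8 h passed (adjusted p of 0.112 to 0.12). Of the 22 called differences 12 passed without each of the 20 arrays in turn: between strains those of heat shock protein, 1 clone 9815, Cct4, Dnajb3, Canx clone 13134, Cct6a clone 21043 and Hsp90ab1 clone 22985 at 4 h and of Canx clone 13134 at 8 h, and between times in DBA/2J those of heat shock protein, 1 clones 8932 and 9815, Cct4, Dnajb3 and Canx clone 13134. The 10 others lost the call without at least 1 array, and 8 of these lost it without more than 10 of the 20.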

How the data were processed

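RNA pools of 6 animals were compared on 50 two-colour arrays. For each of 24192 spots the deposited files give intensity and local background in both dyes, quantified by the authors at fixed scanner gain and left untransformed. A second deposited table has log2 ratios of 19047 spots after the authors' own normalization, whose steps are not given in the sources used here, 10240 cells of it empty, and its array medians lie within 0.0102 of 0. Its scale and direction were read from the values (r with the turned ratios of 0.879 to 0.972 on all 50 arrays), and it served as an alternative. The files list Cy3 first on 4 of the 50 arrays and Cy5 first on the others. The labels list Cy3 first, and direction follows the dyes of each array.

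Intensities were background-corrected by normexp (offset 50) and normalized by loess within each array. Clones were fitted with limma 3.58.1 (lmFit, eBayes) in R 4.3.3 with a centred dye term, comparisons over 10 arrays and differences over 20. Benjamini-Hochberg adjustment ran over the 22824 clones other than the 1368 control spots. Calls needed a log2 ratio of at least 0.50 in size, the study's fold threshold, and an adjusted p under 0.05. The fit was tested on simulated data. Precision is limited by how many arrays there are, with a median SE of 0.158 to 0.186 per comparison over all clones. It is also limited by the dyes. Over all clones, turned ratios of arrays in opposite orientations correlated with r of -0.11 to 0.07. Within an orientation r was 0.05 to 0.18. At 8 h in C57BL/6J, 27 of the 85 members changed sign with the numerator in Cy5 alone. Files were read with data.table (version 1.17.8), and Python 3.11.15, pandas 2.3.3, numpy 2.4.6 and matplotlib 3.10.9 made summaries and figures.

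Replicate numbers did not pair arrays: over 100 pairs of same-numbered arrays the correlation of deviations was -0.03 to 0.02, so the fit has no replicate block. Named clones are those called in a comparison or difference, the 5 highest and 5 lowest members of each comparison, members that the study names, and all member clones of their genes. This gave 61 clones of 30 names, and those not described in the text were called nowhere. The members, lists and tests were chosen with earlier results of these data known. Alternatives changed the background correction, the loess (print-tip, or centring on the median), the dye term, the threshold, the test (the methods' t-test) and the arrays fitted (all 50, orientations averaged or alone, each array left out). Others filtered dim clones, took the authors' values or added a block for header day or replicate number. Clone sequences were not used here, real-time PCR and hormone values were not analysed here, and values of some marker clones are not reported here.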

Additional observations from a re-analysis of the deposited data

Results flagged for a closer look

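Each result here is a log2 ratio against basal that differed between the strains at a time, or between the times in a strain, by a test of the difference itself (limma over 20 arrays), and 22 pairs of 14 clones met this, 19 of them with opposite signs on the 2 sides. At 4 h, DBA/2J minus C57BL/6J, the values were -0.59 and -0.72 for heat shock protein, 1 clones 8932 and 9815, -0.82 for Dnajb3, -0.82 for Hsp90ab1 clone 22985, 0.56 for Cct4, 0.56 for Cct8, 0.75 and 0.64 for Cct6a clones 20505 and 21043, 0.65 for Dnaja2 and 0.78 for Canx clone 13134. At 8 h they were -0.78 for Canx clone 13134 and -0.58 for Hspa4 clone 13837. From 4 h to 8 h in C57BL/6J they were 0.59 for heat shock protein, 1 clone 8932, 0.91 for Bag4 clone 14928 and -1.06 for heat shock protein clone 20210. From 4 h to 8 h in DBA/2J they were 0.94 and 0.76 for heat shock protein, 1 clones 8932 and 9815, -0.72 for Cct4, 0.64 for Dnajb3, -1.03 and -0.74 for Canx clones 13134 and 20656 and -0.61 for Cct8.

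Arrays of the 2 sides did not overlap in 6 of the 22 pairs (27.3%), against 209 of the 1014 pairs called over all clones (20.6%). Called or not, they did not overlap for 2, 1, 3 and 2 of the 85 members at 4 h, at 8 h, between times in C57BL/6J and between times in DBA/2J, where all clones gave 0.364%, 0.276%, 0.18% and 0.245%. Every pair sets arrays of different days against each other, so the days and the groups cannot be told apart.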

How the results depend on the processing

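No called clone changed its sign under any of the 852 combinations of clone and alternative. Of the 550 that leave out 1 array 332 kept the call and 218 lost it, and of the 302 others 193 kept it and 109 lost it. Listed below are the larger changes in the count of called members against the main count in brackets, and smaller ones are left out. Left out, for instance, is that 4 of the 5 basal calls were kept without background correction. So is that 8 of the 10 strain differences at 4 h were kept with print-tip loess. The cause was not tested except where fewer arrays or clones were used. Basal strains (5): 3 with the dim clones filtered out, which left fewer members tested. With print-tip loess 2 of the 5 kept the call and 3 lost it. Another 3 members were called there, among them Dnajb1 clone 14142, lower in DBA/2J at -0.67. With the authors' values 3 of the 5 kept the call and 2 lost it. C57BL/6J 4 h (1): 0 below. C57BL/6J 8 h (2): 1 without background correction, with median centring, without the dye term and with a header day block. DBA/2J 4 h (0): 4 with the filter, 2 by the methods' t-test, 2 with the authors' values, 5 with all 50 arrays in one fit and 5 with the replicate block in that fit. DBA/2J 8 h (3): 1 without background correction and 1 with print-tip loess, 0 without the dye term and with a header day block, 5 with all 50 arrays in one fit and 5 with the replicate block in that fit. With the 5 arrays of each orientation averaged, or with either orientation alone, these comparisons gave 0 (basal, C57BL/6J 4 h, C57BL/6J 8 h and DBA/2J 8 h). Differences: at 4 h (10) 5 without the dye term and 3 with the replicate block; at 8 h (2) 1 with print-tip loess, 1 without the dye term and 0 with the replicate block; between times in C57BL/6J (3) 1 without background correction, 1 with median centring, 0 without the dye term and 0 with the replicate block; between times in DBA/2J (7) 4 without the dye term and 0 with the replicate block. The replicate number pairs no arrays (consensus correlation -0.01 over all 50), and the cause of the lower counts with the replicate block was not tested.

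Leaving out each array in turn gave 2 to 4 called members between the basal strains, 0 to 1 at 4 h and 0 at 8 h in C57BL/6J, and 0 at 4 h and 0 at 8 h in DBA/2J. The differences, an alternative chosen after seeing the data, gave 6 to 9 at 4 h, 1 to 2 at 8 h, 0 to 2 between times in C57BL/6J and 5 to 7 in DBA/2J. The median member moved beyond its spread over arrays in 5 of 30 cases: -0.027 for the basal strains, -0.055 at 8 h in C57BL/6J and 0.0063 at 4 h in DBA/2J with the numerator in Cy3 alone, 0.012 at 4 h in DBA/2J with the authors' values, and -0.011 at 8 h in DBA/2J with it in Cy5 alone. Called with all 50 arrays at 4 h in DBA/2J were Cct4, Cct6a clones 20505 and 21043, Dnajb3 and Hsp90ab1 clone 22985. Of the 85 members 48 were at or below the empty spots on most arrays, and their ratios are the least sure.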
